A study of Mus musculus with 72 samples.

Results

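CLOCK-BMAL1 is the activator of the mammalian circadian clock, and the nuclear receptors REV-ERB and ROR form the loop that sets the transcription of its BMAL1 subunit. The 7 genes described here were chosen by name for these roles: Arntl, which encodes BMAL1, its partners Clock and Npas2, the REV-ERB genes Nr1d1 and Nr1d2, and the ROR genes Rora and Rorb. They are 7 of the 24883 rows of the expression tables, and each symbol has 1 row.

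The suprachiasmatic nucleus (SCN), the hypothalamic pacemaker that receives light from the retina, was profiled by RNA-seq of poly(A) RNA in 72 libraries. The mice were male C57BL/6, 8 weeks old, kept for 1 week in 12 h of light a day (LD) or in constant darkness (DD) and then for 2 weeks on a diet without tryptophan (-Trp) or a nitrogen-matched control diet (Ctrl) in the same light. Each of the 4 groups (both diets in LD, both diets in DD) held 3 libraries at each of 6 times, every 4 h from zeitgeber time (ZT) 0 in LD or circadian time (CT) 0 in DD. The design asks whether dietary tryptophan and light alter the daily rhythm of the clock genes or their level.

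BMAL1 pairs with CLOCK or with NPAS2 and the pair binds E-boxes in the promoters of Per, Cry and Nr1d1. REV-ERB proteins repress Arntl through response elements (ROREs) that ROR proteins also bind and from which RORs activate it, so that Nr1d1 and Arntl are known for peaking at opposite times of day. In the SCN, RORα and RORβ are the RORs known to be expressed, and Clock itself is known for a nearly constant level.

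The times and groups of the libraries had to be settled first. The time series that the study published for control mice holds, for all 36 control libraries, the values of deposited columns with other names. Its LD libraries of ZT0 to ZT4, for example, are columns named for Ctrl DD at 16 h and 20 h, and its later LD libraries are columns named for -Trp DD. Libraries were placed here by that published order, the 36 -Trp libraries by continuing the same shift, and each result was computed again with every column placed by its own name. The values alone do not say which placing is that of the mice, so every statement on a group or a time below holds for the published order unless it says otherwise.

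Expression was measured as FPKM, fragments per kilobase of transcript scaled to the mapped fragments of the library. FPKM is a level per length and holds no number of reads, so the sequencing depth of the libraries is unknown. Sums of FPKM over all rows were 403066 to 524705 in the 36 LD libraries and 317417 to 411944 in the 36 DD libraries, and 35 of the DD libraries were at or below 353587. This split has the same members as the light schedule but for 1 library (-Trp DD CT4 replicate 2, at 411944), so light and this range cannot be told apart. The defining SCN markers were present, with none at 0 in any library. The summed FPKM of 10 SCN markers (Avp, Vip, Six6, Lhx1 and others) was 158 to 1050 in 70 libraries, 48.2 in Ctrl DD CT12 replicate 1 and 66.1 in -Trp LD ZT20 replicate 3. Low in SCN markers means low in this sum. Avp, with the highest median of the 10 (372 FPKM), was at 18.5 and 41.3 in these 2 libraries. In the first, Vip (17.6 against a median of 16.7) and Grp (6.99 against 4.74) were not low. Nor were Six3 (9.93 against 9.25) and Prok2 (1.51 against 0.927) in the second. The other markers were below their medians there. The first library also held the cortical and thalamic marker Slc17a7 at 279 FPKM and the second at 24.3, against a median of 1.02 over all libraries. The summed FPKM of 5 such markers was 307 in the first and 34.1 in the second, against 4.21 to 30.1 in the other 70. Calls that end or appear without these 2 libraries are given both ways. In whole tissue, fewer cells of a type and less RNA per cell cannot be told apart.

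The annotation (GENCODE M21 on GRCm38, also called mm10) places Arntl on chr7:113207465-113314126 (+), Clock on chr5:76209868-76304792 (-) and Npas2 on chr1:39193731-39363236 (+). Nr1d1 lies on chr11:98767932-98775333 (-), Nr1d2 on chr14:18204054-18239127 (-), Rora on chr9:68653786-69388246 (+) and Rorb on chr19:18930605-19111196 (-). All 7 genes are protein coding. The promoters of Arntl and Nr1d1 are shown because these genes are the ones called rhythmic in both LD groups and because each gene product acts on the other gene. Each is 300 bases long, with the last 50 after the start site, and reads 5′ to 3′ on the strand of the gene. They are from RefSeq (GRCm38.p6), on chr7:113207261-113207560 (+) and chr11:98775328-98775627 (-). Capitals mark RORE matches in Arntl and an E-box variant (E′-box) in Nr1d1.
Arntl: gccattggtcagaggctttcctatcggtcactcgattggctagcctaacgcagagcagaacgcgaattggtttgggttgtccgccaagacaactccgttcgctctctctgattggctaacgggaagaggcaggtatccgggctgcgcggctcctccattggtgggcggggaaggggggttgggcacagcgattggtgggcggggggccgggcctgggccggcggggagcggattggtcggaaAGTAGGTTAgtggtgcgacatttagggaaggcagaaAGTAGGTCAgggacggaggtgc
Nr1d1: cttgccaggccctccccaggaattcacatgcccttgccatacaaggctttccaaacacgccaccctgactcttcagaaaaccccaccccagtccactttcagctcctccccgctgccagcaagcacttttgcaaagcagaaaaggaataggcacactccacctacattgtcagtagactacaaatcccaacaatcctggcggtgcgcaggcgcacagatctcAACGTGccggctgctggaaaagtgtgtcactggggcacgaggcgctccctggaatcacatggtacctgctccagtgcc

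Promoter windows of all 7 genes were matched, 11 in number since some genes have several start sites, and were searched on both strands for 5 motifs. The Arntl window holds the flanked RORE ANTAGGTNA 2 times, from base -8 to 1 and from base 29 to 37 counted from the start site, and 2.04% of 32851 promoters hold this motif. The second of these overlaps a match of the RORE core AGGTCA, which is also in 1 Clock and 1 Nr1d2 window and in 16.3% of all promoters. The E′-box CACGTT is on the opposite strand at -28 to -23 of Nr1d1 and at -234 to -229 of 1 Rorb window, beside 4.68% of all promoters. The E-box CACGTG (7.15% of all promoters) and the D-box TTATGNAA (3.38%) are in none of the 11 windows. A match is a description of these letters in this window and no measurement of binding.

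Nr1d1, the REV-ERBα gene, had the highest median of the 7 genes, 27.2 FPKM over all 72 libraries. Nr1d2 followed at 23.6 FPKM, then Arntl (7.71), Clock (7.25), Rora (4.61), Rorb (4.13) and Npas2 (2.08). The order of 3 neighbouring pairs was not the same in LD and DD. Arntl was above Clock in 33 of 36 LD libraries (medians 7.44 and 5.61 FPKM) and in 3 of 36 DD libraries (7.95 and 9.62). Nr1d1 was above Nr1d2 in 35 LD libraries (medians 29.1 and 21.4 FPKM) and in 17 DD libraries (24.6 and 25.3). Rora was above Rorb in 10 LD libraries (medians 3.73 and 3.99 FPKM) and in 34 DD libraries (5.39 and 4.21). Within a library Nr1d2 was above Arntl in 72 of 72, Clock above Rora in 71 and Rorb above Npas2 in 68.

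**Figure D1:**
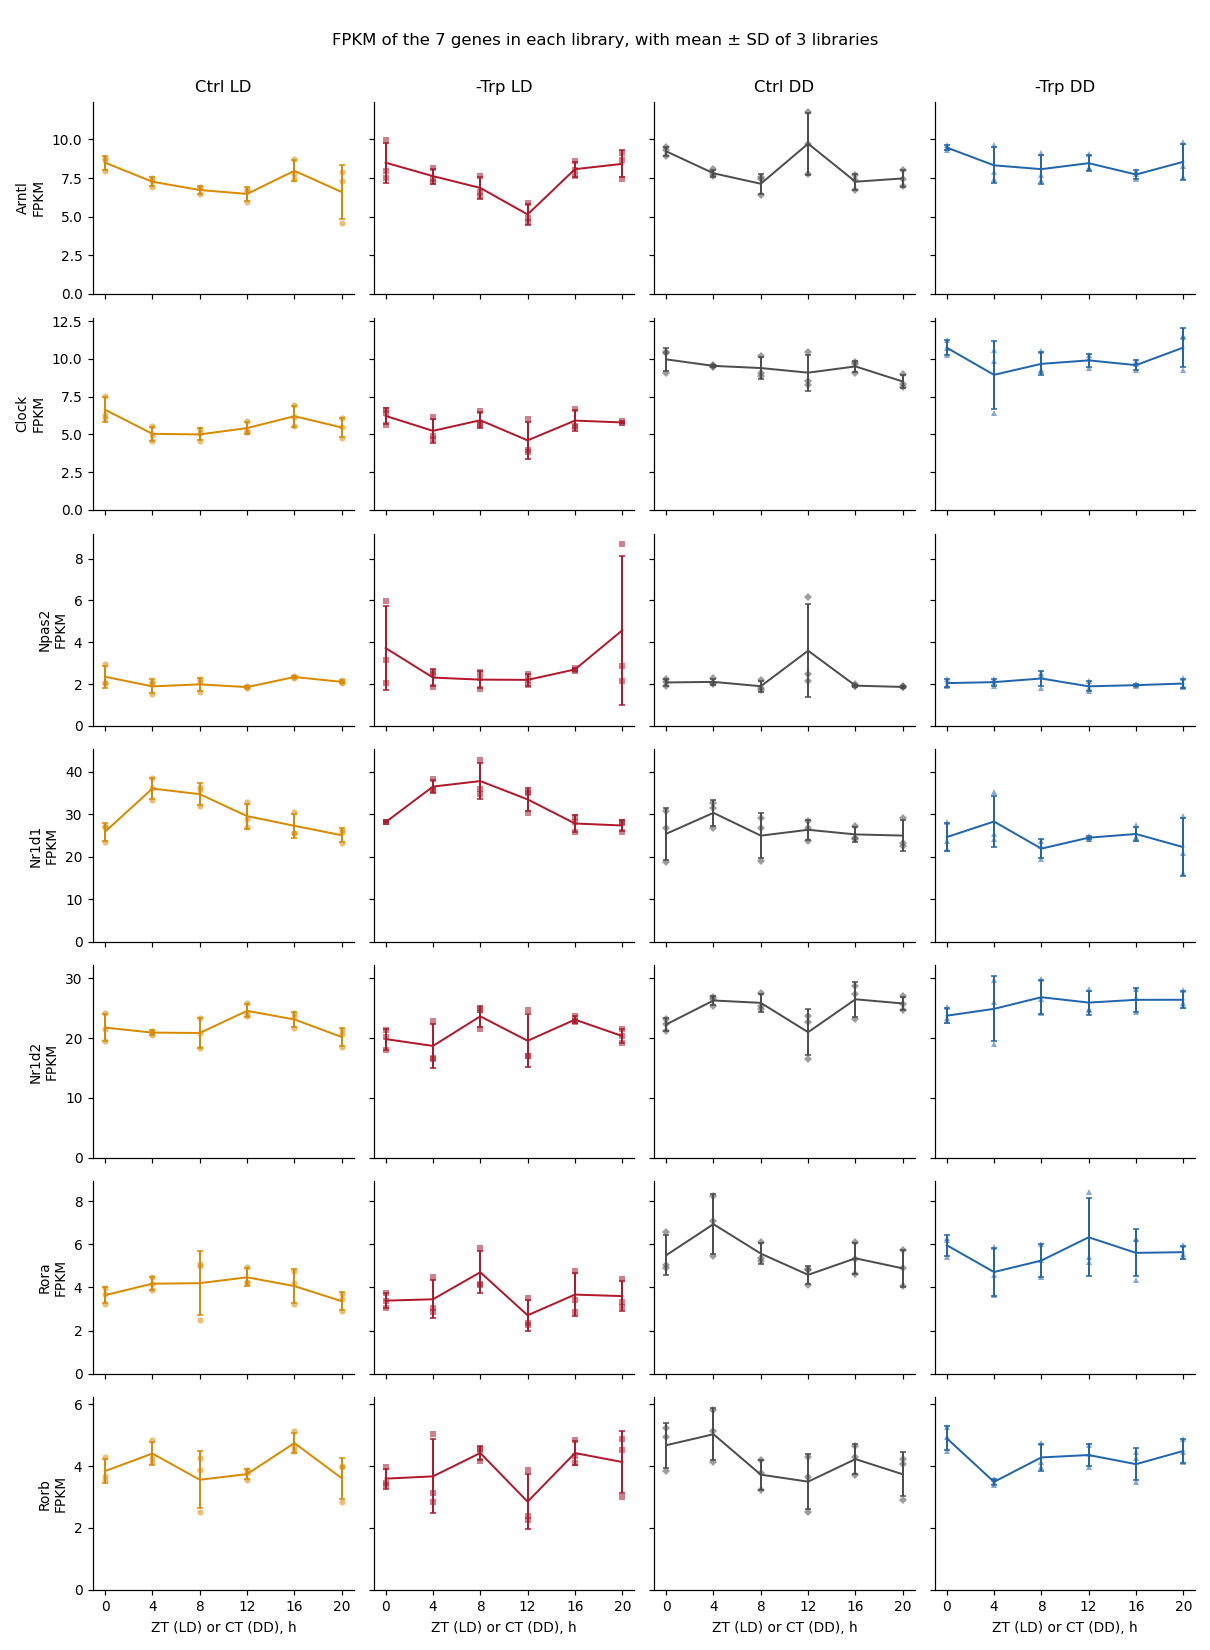
FPKM (vertical axes, from 0) against time in h (horizontal axes) for the 7 genes (rows) in the 4 groups (columns), with 1 point per library and lines and bars for mean ± SD of 3 libraries. Nr1d1 has its highest means at ZT4 or ZT8 and Arntl its highest at ZT0 in both LD groups, Clock lies higher in DD than in LD, and single points set the high means of Npas2.

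In LD the rank test called Nr1d1 and Arntl on both diets and Rora on the Ctrl diet. The cosinor model called Arntl on the -Trp diet only. The highest mean of Nr1d1 was at ZT4 on the Ctrl diet and ZT8 on the -Trp diet, and that of Arntl at ZT0 on both. Nr1d1 was high in the light phase and 1.44-fold lower at its lowest time on the Ctrl diet, and Arntl was low at dusk. Rhythms were called with JTK_CYCLE, a rank test against a 24 h template with an exact null distribution, at p under 0.05. It called 3 of the 7 genes in Ctrl LD, beside 7.11% of all rows, and 2 of the 7 in -Trp LD, beside 7.42%. The genes were Nr1d1 and Arntl in both groups and Rora in Ctrl LD.

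Nr1d1 encodes REV-ERBα, a repressor of Arntl. On the Ctrl diet in LD Nr1d1 was at 23.5, 27.1 and 27.2 FPKM at ZT0, 33.4, 36.2 and 38.5 at ZT4, and 31.9, 35.8 and 36.5 at ZT8. At the later times it was at 32.8, 28.8 and 27.1 FPKM (ZT12), 25.7, 25.6 and 30.6 (ZT16), and 23.3, 25.8 and 26.2 (ZT20). All 6 libraries of ZT4 and ZT8 were above all 9 libraries of ZT0, ZT16 and ZT20, and ZT12 overlapped both. On the -Trp diet the values were 28.2, 28.1 and 28.2 FPKM at ZT0, 38.3, 35.6 and 35.7 at ZT4, and 34.7, 36.03 and 42.7 at ZT8. They were then 30.3, 35.2 and 35.0 at ZT12, 28.3, 25.8 and 29.5 at ZT16, and 25.9, 28.2 and 28.0 at ZT20. Again every library of ZT4 and ZT8 was above every library of ZT0, ZT16 and ZT20. JTK_CYCLE gave an exact p = 0.00139 for Nr1d1 in Ctrl LD and p = 0.000265 in -Trp LD, and it was called in 18 of 18 repeats with 1 library left out on either diet. After Benjamini-Hochberg adjustment over all rows neither call held (adjusted exact p = 0.213 and 0.0520).

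A cosinor model, which fits a 24 h cosine on log2(FPKM + 0.5) with limma after scaling the libraries to each other, gave Nr1d1 a log2 amplitude of 0.26 ± 0.043 (SE) with a peak at ZT7.09 ± 0.64 h in Ctrl LD (adjusted p = 0.0187). In -Trp LD the amplitude was 0.25 ± 0.038 and the peak ZT7.44 ± 0.58 h (adjusted p = 0.00423). Nr1d1 was the only 1 of the 7 genes called by limma in Ctrl LD, beside 0.725% of all genes tested. Its call there was lost without ZT8 replicate 2 (adjusted p = 0.0573) or ZT8 replicate 3 (0.0564) and was kept in the other 16 repeats. Over 10 other settings with the same placing the adjusted p was 0.0165 to 0.0595.

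Arntl encodes BMAL1, the subunit that all CLOCK-BMAL1 and NPAS2-BMAL1 pairs share. In Ctrl LD it was at 7.97, 8.70 and 8.82 FPKM at ZT0, 7.33, 6.94 and 7.52 at ZT4, and 6.46, 6.83 and 6.89 at ZT8. It was at 6.69, 6.76 and 5.97 FPKM at ZT12, 7.44, 7.73 and 8.74 at ZT16, and 7.87, 4.61 and 7.31 at ZT20. The 3 libraries of ZT0 were above the 9 libraries of ZT4, ZT8 and ZT12, and ZT20 replicate 2 (4.61) was the lowest library of the group although the others of its time were not low. In -Trp LD Arntl was at 7.53, 9.98 and 7.98 FPKM at ZT0, 7.44, 7.27 and 8.17 at ZT4, and 6.61, 6.33 and 7.64 at ZT8. It reached 5.90, 4.65 and 4.88 FPKM at ZT12 and was at 8.03, 8.58 and 7.62 at ZT16 and 8.70, 7.44 and 9.12 at ZT20. The 3 libraries of ZT12 were below the other 15 libraries of the group.

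JTK_CYCLE gave Arntl an exact p = 0.0196 in Ctrl LD and p = 0.00795 in -Trp LD. The -Trp LD call was kept in 18 of 18 repeats with 1 library left out and the Ctrl LD call in 11, with an exact p = 0.0700 at most. The 7 libraries without which it was lost were the 3 of ZT0, ZT8 replicates 2 and 3, ZT12 replicate 3 and ZT20 replicate 1. The Ctrl LD call was also lost with the ties of the template kept (exact p = 0.0505), and neither call held after Benjamini-Hochberg adjustment over all rows (adjusted exact p = 0.475 and 0.272). The cosinor amplitude of Arntl was 0.095 ± 0.059 in Ctrl LD (adjusted p = 0.641) and 0.28 ± 0.062 in -Trp LD, with a peak at ZT22.4 ± 0.84 h (adjusted p = 0.0424). Without Ctrl LD ZT20 replicate 2 the Ctrl LD amplitude was 0.16 (adjusted p = 0.0402). The limma count in -Trp LD was thus 2 of the 7 genes, Nr1d1 and Arntl, beside 2.75% of all genes. The Arntl call was kept in 4 of 18 repeats with 1 library left out, with an adjusted p of 0.104 at most, reached without ZT0 replicate 2, and 0.0810 without ZT20 replicate 3, the library low in SCN markers. The 4 libraries without which it was kept were ZT0 replicate 1, ZT8 replicate 3, ZT16 replicate 2 and ZT20 replicate 2.

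The ratio of Nr1d1 to Arntl within a library sets the gene of a repressor against its target. In Ctrl LD it was 3.05 ± 0.093 (mean ± SD, n = 3) at ZT0 and 5.16 ± 0.20 at ZT8, and in -Trp LD it was 3.36 ± 0.49 at ZT0 and 6.63 ± 1.31 at ZT12. In both LD groups the libraries of ZT4, ZT8 and ZT12 were all above those of ZT0 and ZT16. The ZT20 libraries lay below those of ZT4, ZT8 and ZT12 in -Trp LD (2.98 to 3.79). In Ctrl LD they ran from 2.95 to 5.59, and 5.59 was the highest library of that group. In DD the means stayed between 2.60 (-Trp DD CT0) and 3.89 (Ctrl DD CT4), with the CT4 libraries above those of CT0 in both DD groups and most other times overlapping.

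**Figure D2:**
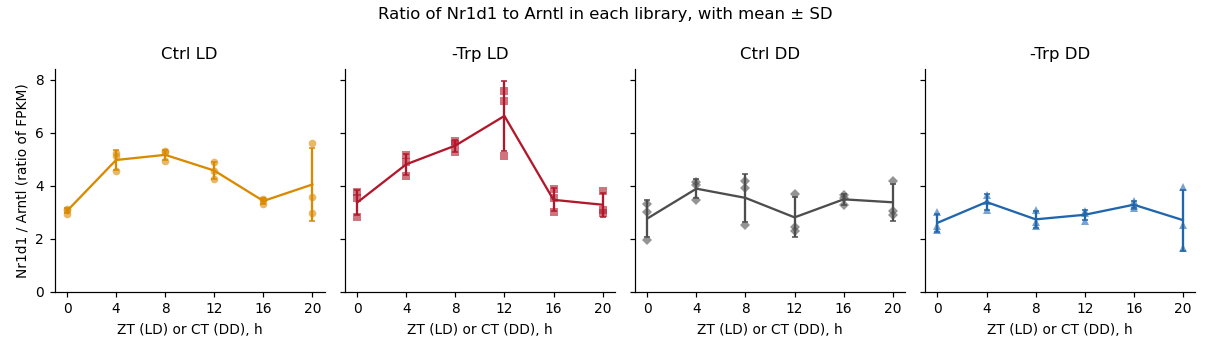
Ratio of Nr1d1 to Arntl FPKM (vertical axis, from 0) against time in h in the 4 groups, with 1 point per library and mean ± SD of 3 libraries. The mean ratio is highest at ZT8 in Ctrl LD (5.16) and at ZT12 in -Trp LD (6.63) and is at most 3.89 in DD.

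Rora, which encodes the activator RORα, passed the rank test in Ctrl LD (exact p = 0.0441), with means from 3.36 ± 0.42 FPKM at ZT20 to 4.47 ± 0.42 at ZT12. Its 3 libraries at ZT12 (4.95, 4.25 and 4.204) were above its 3 at ZT20 (3.49, 2.89 and 3.71). ZT8 replicate 1, at 2.49 FPKM, was the lowest of the group beside 4.99 and 5.10 in the other libraries of that time. The call was kept in 3 of 18 repeats with 1 library left out (ZT8 replicate 1 and ZT16 replicates 1 and 3). It was lost after Benjamini-Hochberg adjustment (adjusted p = 0.621). With the ties of the template kept it was also lost (JTK_CYCLE p = 0.0820), and that p is not exact, as for Arntl. The cosinor amplitude was 0.14 ± 0.069 (adjusted p = 0.512). In -Trp LD the rank test gave Rora an exact p = 1, with 2.71 ± 0.71 FPKM at ZT12 and 4.70 ± 0.96 at ZT8.

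Clock, Npas2, Nr1d2 and Rorb were not called in either LD group by either test. Clock had exact p = 0.264 and a cosinor amplitude of 0.13 ± 0.052 in Ctrl LD, with its highest mean at ZT0 (6.63 ± 0.81 FPKM) and its lowest at ZT8 (4.99 ± 0.40). It passed the rank test without Ctrl LD ZT20 replicate 2 (exact p = 0.0405). Nr1d2, the other REV-ERB gene, had exact p = 0.143 in Ctrl LD and p = 1 in -Trp LD. Its highest mean in Ctrl LD was 24.6 ± 1.1 FPKM at ZT12, later than that of Nr1d1, and it passed the rank test there without ZT0 replicate 1 (exact p = 0.0224). Rorb, at 3.56 to 4.75 FPKM as means in Ctrl LD and 2.85 to 4.43 in -Trp LD, had exact p = 1 in both.

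Npas2 encodes the paralogue of CLOCK, and 3 libraries decided its pattern. It was at 8.68 FPKM in -Trp LD ZT20 replicate 3, 6.17 in Ctrl DD CT12 replicate 1 and 5.98 in -Trp LD ZT0 replicate 2, and at 1.501 to 3.13 FPKM in the other 69. The first 2 of these are the libraries lowest in SCN markers. Their part in the result was not tested beyond leaving them out. The cosinor amplitude in -Trp LD was 0.38 ± 0.15 (adjusted p = 0.333), and 0.22 (adjusted p = 0.533) without the ZT20 library. JTK_CYCLE gave an exact p = 0.0568 in -Trp LD, with calls in 3 repeats with 1 library left out (ZT0 replicate 1, ZT8 replicate 1 or ZT20 replicate 2, p = 0.0163, 0.0224 and 0.00839). Without the ZT20 library low in SCN markers the exact p was 0.186.

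In DD none of the 7 genes was called rhythmic. JTK_CYCLE called 0 of 7 in Ctrl DD, beside 4.92% of all rows, and 0 of 7 in -Trp DD, beside 1.42%. The smallest p-values were those of Rora in Ctrl DD (exact p = 0.115) and Clock in -Trp DD (p = 0.384). By limma, 0 of 7 were called in each DD group, where 0% of all genes were called too, and 1195 genes in Ctrl DD (1 of the 7, Rora) and 323 in -Trp DD (0 of the 7) had an unadjusted p under 0.05.

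Nr1d1 in Ctrl DD was at 18.7, 30.7 and 26.8 FPKM at CT0, 32.6, 31.6 and 26.9 at CT4, and 26.8, 19.0 and 29.2 at CT8. Its means at CT12, CT16 and CT20 were 26.4 ± 2.3, 25.3 ± 1.7 and 25.0 ± 3.6 FPKM. The libraries of CT4, the highest mean, overlapped with those of CT0, CT8, CT12, CT16 and CT20. In -Trp DD the highest mean of Nr1d1 was also at CT4 (28.3 ± 6.0 FPKM), where replicate 2 was at 35.2 and the others at 25.4 and 24.3. The cosinor amplitude was 0.088 ± 0.070 in Ctrl DD and 0.031 ± 0.068 in -Trp DD.

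Arntl in Ctrl DD was highest at CT12, with 11.8, 7.74 and 9.70 FPKM, and the 11.8 belongs to the library lowest in SCN markers. At CT0 it was at 9.50, 9.30 and 8.91 FPKM and at CT8 at 6.40, 7.54 and 7.45. The CT0 libraries were all above those of CT4, CT8, CT16 and CT20. In -Trp DD Arntl had its highest mean at CT0 (9.48 ± 0.16 FPKM) and its lowest at CT16 (7.73 ± 0.27), and these 2 times did not overlap. The cosinor amplitudes were 0.027 ± 0.076 in Ctrl DD and 0.074 ± 0.050 in -Trp DD.

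Rora and Rorb in Ctrl DD had the largest amplitudes of the 7 genes in DD, 0.19 ± 0.069 with a peak at CT3.93 ± 1.37 h (unadjusted p = 0.0405, adjusted p = 0.574 by limma) and 0.18 ± 0.075 with a peak at CT1.74 ± 1.58 h (adjusted p = 0.659). Rora was at 7.08, 8.25 and 5.46 FPKM at CT4 and at 4.81, 4.10 and 4.84 at CT12, and these times did not overlap. The rank test called Rora in Ctrl DD without CT16 replicate 3 (exact p = 0.0224) or CT20 replicate 2 (p = 0.0405).

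**Figure D3:**
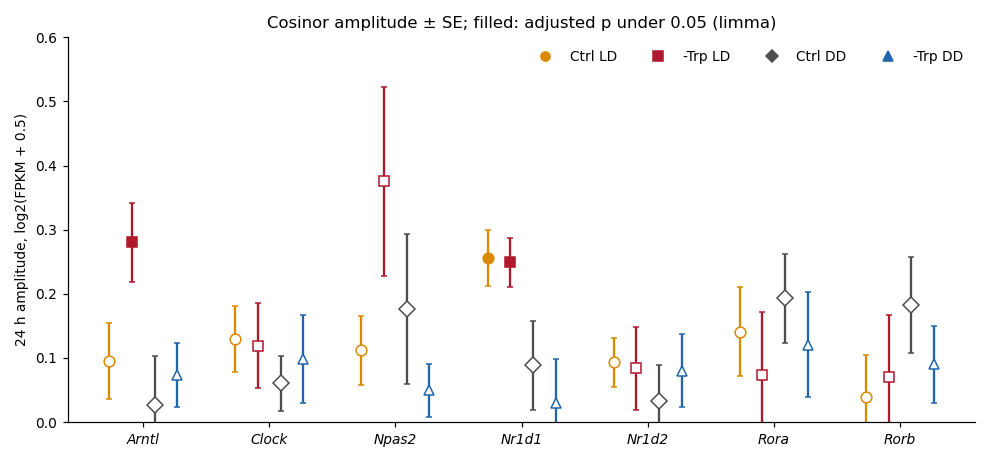
Log2 amplitude of the 24 h cosine (vertical axis, from 0) with its SE for the 7 genes in the 4 groups, with filled points for an adjusted p under 0.05 by limma. The filled points are Nr1d1 in Ctrl LD (0.26) and -Trp LD (0.25) and Arntl in -Trp LD (0.28), while the largest open point, Npas2 in -Trp LD (0.38), has a wide error.

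One rhythm fitted to all 72 libraries gave Nr1d1 an amplitude of 0.15 ± 0.030 with a peak at 6.85 ± 0.76 h (adjusted p = 0.00335), the only 1 of the 7 genes called, beside 3.88% of all genes. It was called in 72 of 72 repeats with 1 library left out. Arntl had an amplitude of 0.11 ± 0.033 and a peak at 23.0 ± 1.1 h (adjusted p = 0.0871). Arntl passed without Ctrl DD CT12 replicate 1 (adjusted p = 0.00944), without Ctrl DD CT12 replicate 3 (0.0433) or without Ctrl LD ZT20 replicate 2 (0.0246). Over 10 other settings with the same placing its adjusted p was 0.0100 to 0.175. The median amplitude of the 7 genes was 0.074, beside 0.045 over all genes tested.

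Whether the rhythms differ was tested directly, by terms for the difference of cosine and sine. None of the 7 genes passed the limma test of a difference among the 4 groups, beside 0.36% of all genes. Npas2 alone of the 7 had an unadjusted p under 0.05 there (limma unadjusted p = 0.0339, adjusted p = 0.407), and Nr1d1 had unadjusted p = 0.0515 (adjusted p = 0.461). Nor did any pass for the diets in LD (0% of all genes, 456 of 14202 at an unadjusted p under 0.05) or for the diets in DD (0.0345% of all genes). The lowest unadjusted p was 0.111 in LD, for Arntl, and 0.0272 in DD, for Rora (adjusted p = 0.634). For the light schedules, 0 of 7 passed on the Ctrl diet (0.0832% of all genes) and 0 of 7 on the -Trp diet (0.0278%). On the -Trp diet Nr1d1 had unadjusted p = 0.0226 (adjusted p = 0.506) and Arntl 0.0439 (adjusted p = 0.569), and on the Ctrl diet Clock had 0.0463 (adjusted p = 0.334). With time of day as a factor in place of the cosine, Arntl passed the test of a difference among the 4 groups (adjusted p = 0.0427 by limma). Over the other settings with the same placing no further member passed it.

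The diet changed the mean level of none of the 7 genes over the day by the limma test, in LD (beside 1.11% of all genes) or in DD (13.4%). Unadjusted p-values under 0.05 were those of Nr1d1 and Npas2 in LD and of 0 of the 7 in DD. Nr1d1 was 0.12 ± 0.036 higher on the log2(FPKM + 0.5) scale in -Trp LD than in Ctrl LD (1.09-fold, adjusted p = 0.108). The groups overlapped, with 25.8 to 42.7 FPKM and a median of 29.9 in -Trp LD against 23.3 to 38.5 and a median of 28.0 in Ctrl LD. Over 10 other settings with the same placing the adjusted p was 0.0460 to 0.358, the lowest with a covariate for transcript length described below. In DD the difference of Nr1d1 was -0.091 ± 0.064 (95% interval -0.22 to 0.034).

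Npas2 was 0.34 ± 0.12 higher in -Trp LD than in Ctrl LD (adjusted p = 0.183), and 0.24 higher (adjusted p = 0.143) without the -Trp LD library low in SCN markers. Without the 3 libraries in which Npas2 was high it was at 2.41 ± 0.39 FPKM in -Trp LD (16 libraries) and 2.09 ± 0.32 in Ctrl LD (18 libraries). Clock differed by 0.088 ± 0.059 between the diets in DD (adjusted p = 0.302). Without -Trp DD CT4 replicate 2, its lowest DD library at 6.39 FPKM, the difference was 0.13 (adjusted p = 0.0424). Over 10 other settings with the same placing the adjusted p of Clock was 0.0199 to 0.448. For Arntl, Nr1d2, Rora and Rorb the diet differences were between -0.13 and 0.071 in LD and DD, and none had an unadjusted p under 0.05.

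The diet effect on level was also compared between LD and DD. None of the 7 genes passed the limma test of this difference, beside 7.69% of all genes. Nr1d1 came nearest, with -0.21 ± 0.073 (unadjusted p = 0.00588, adjusted p = 0.0617), and Npas2 had -0.39 ± 0.15 (adjusted p = 0.0862). Nr1d1 passed in 6 of 72 repeats with 1 library left out, with an adjusted p of 0.0204 without Ctrl DD CT0 replicate 1, 0.0304 without Ctrl DD CT8 replicate 2 and 0.0446 without Ctrl LD ZT16 replicate 3. The other 3 were replicate 2 of -Trp DD at CT0 (0.0380), CT4 (0.0431) and CT20 (0.0218).

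Levels differed between the light schedules for most genes measured, and so did those of most of the 7 genes. On the Ctrl diet 5 of the 7 genes were higher in DD and none lower, beside 78.8% of all genes called (37.8% higher and 41.1% lower). On the -Trp diet 5 were higher and 2 lower in DD, beside 79.5% of all genes (37.8% higher and 41.7% lower). The median difference of the 7 genes was 0.25 on Ctrl and 0.27 on -Trp, beside -0.021 and -0.024 over all genes. A count near the background is no result about these 7 genes, and with the sums of FPKM split in the same way the light schedule and the libraries' range cannot be told apart.

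Clock had the largest difference. It was at 4.55 to 7.56 FPKM (median 5.51) in Ctrl LD, 3.82 to 6.68 (median 5.71) in -Trp LD, 8.14 to 10.4 (median 9.27) in Ctrl DD and 6.39 to 11.5 (median 9.95) in -Trp DD. On the Ctrl diet all 18 DD libraries were above all 18 LD libraries, and on the -Trp diet 1 DD library, CT4 replicate 2 at 6.39, lay within the LD range. The difference was 0.79 ± 0.045 on the Ctrl diet (1.73-fold, adjusted p = 1.18e-16) and 0.86 ± 0.064 on the -Trp diet (1.82-fold, adjusted p = 8.96e-14).

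Rora, the ROR known in many tissues, was 0.51 ± 0.074 higher in DD on the Ctrl diet (1.42-fold) and 0.67 ± 0.091 higher on the -Trp diet (1.59-fold), with medians of 4.07 and 3.38 FPKM in LD against 5.26 and 5.47 in DD. Its LD and DD libraries overlapped on both diets. Rorb, the ROR known for neural tissue, was 0.14 ± 0.064 higher on the Ctrl diet (adjusted p = 0.0498) and 0.23 ± 0.074 higher on the -Trp diet (adjusted p = 0.00468). The Ctrl call of Rorb was kept in 14 of 36 repeats with 1 library left out, and with FPKM as deposited the differences were 0.045 (adjusted p = 0.553) and 0.15 (0.0642). Over 9 other settings with the same placing the adjusted p of Rorb was 0.0153 to 0.553 on Ctrl and 0.000918 to 0.0642 on -Trp.

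Nr1d2 was 0.26 ± 0.049 and 0.39 ± 0.058 higher in DD, and Arntl 0.25 ± 0.061 and 0.27 ± 0.062, on the Ctrl and -Trp diets. The Arntl libraries overlapped, at 4.61 to 9.98 FPKM (median 7.44) in LD and 6.40 to 11.8 (median 7.95) in DD. On the -Trp diet Nr1d1 and Npas2 were lower in DD. Nr1d1 differed by -0.28 ± 0.061 (adjusted p = 8.76e-05), at 16.3 to 35.2 FPKM (median 24.3) in DD against 25.8 to 42.7 (median 29.9) in LD. On the Ctrl diet its difference was -0.075 ± 0.059 (adjusted p = 0.245), and -0.18 (adjusted p = 0.00958) with FPKM as deposited, a scale on which the median of all genes was -0.11. Npas2 was -0.27 ± 0.12 lower in DD on the -Trp diet (adjusted p = 0.0436), and -0.17 (adjusted p = 0.0576) without the -Trp LD library low in SCN markers. This call was kept in 16 of 36 repeats with 1 library left out, and over 9 other settings with the same placing the adjusted p was 0.00853 to 0.0747. For Nr1d1 on the Ctrl diet that range was 0.00958 to 0.332.

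The light difference went with transcript length over all genes. Of the genes tested on the Ctrl diet 91.2% had a length for their longest coding transcript, and the median DD minus LD difference was -0.44 for transcripts under 2 kb, -0.085 at 2 to 4 kb, 0.18 at 4 to 6 kb, 0.44 at 6 to 8 kb and 0.70 at 8 kb or more. On the -Trp diet these medians were -0.37, -0.080, 0.14, 0.36 and 0.65. Clock (9.74 kb), Rora (10.9 kb) and Rorb (9.29 kb) have transcripts of the longest class, and Clock lay above its median, Rorb below it, and Rora below it on Ctrl (0.51) and near it on -Trp (0.67). Arntl (2.98 kb) and Nr1d1 (2.72 kb) share a class, and Arntl lay above its median on both diets and Nr1d1 below it on the -Trp diet. Nr1d2 (4.66 kb) was above its class and Npas2 (4.24 kb) below it on both diets.

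**Figure D4:**
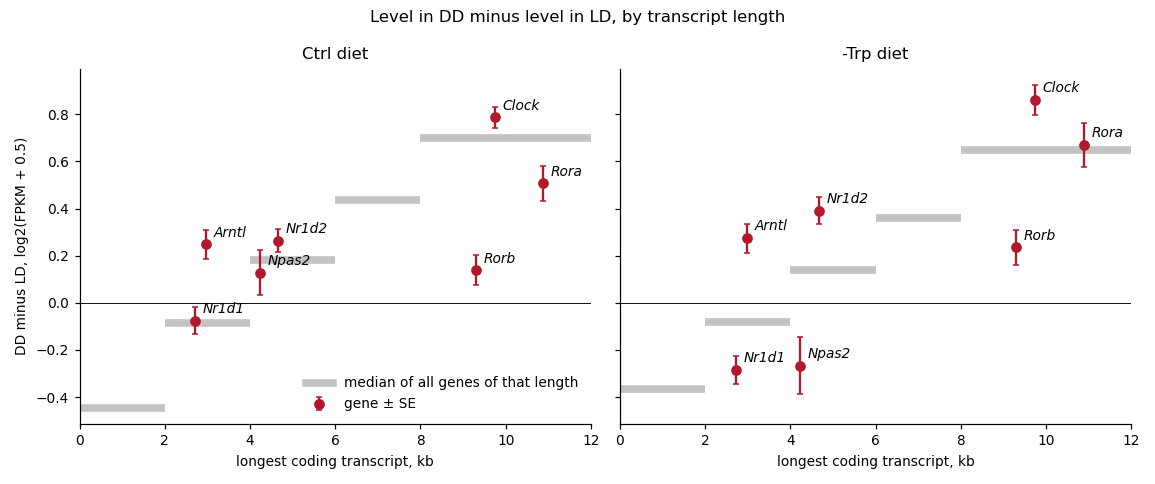
Difference in level, DD minus LD, on log2(FPKM + 0.5) (vertical axis) against the length of the longest coding transcript in kb (horizontal axis, to 12 kb) on the Ctrl (left) and -Trp (right) diet. Red points are the 7 genes with SE and grey bars are medians of all genes of that length, which climb from -0.44 to 0.70 on Ctrl and from -0.37 to 0.65 on -Trp.

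The same balance of long and short transcripts varied between libraries of 1 group. The mean log2 of 727 genes with transcripts of 8 kb or more minus that of 2916 genes under 2 kb was -1.07 to -0.18 (median -0.52) in LD and -0.37 to 0.75 (median 0.56) in DD. Within LD the lowest 2 libraries were -Trp LD ZT12 replicate 3 (-1.07) and replicate 2 (-0.95), in which Arntl, Clock, Nr1d2, Rora and Rorb were all below replicate 1 of that time. In DD the lowest was -Trp DD CT4 replicate 2 (-0.37), with Clock at 6.39 and Rora at 3.66 FPKM. With this balance as a covariate, an alternative chosen after the values were seen, Nr1d1 had an amplitude of 0.22 in Ctrl LD (adjusted p = 0.0595) and 0.24 in -Trp LD (0.00545), and Arntl 0.21 in -Trp LD (0.0346). Over the 10 other settings with the same placing these adjusted p-values ran from 0.0165 to 0.0595, from 0.00165 to 0.0528 and from 0.0346 to 0.0818. The oligodendrocyte markers Mbp, Mog, Mag and Mobp, 4 of 4 lower by median in DD, also moved with the split, with Mbp at a median of 1368 FPKM in LD and 744 in DD and Mobp at 93.4 and 62.5. Of 8 peptide genes of other hypothalamic nuclei 4 were lower and 4 higher by median in DD, such as Oxt (1506 FPKM in LD and 574 in DD) and Pmch (8.67 and 322). Their summed FPKM was 299 to 3272 (median 1901) in LD and 39.2 to 2073 (median 1243) in DD. The part of these cell types in the light differences was not tested.

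Placed by column name instead, the libraries gave other levels for the light schedules. Ctrl LD and Ctrl DD by name each draw libraries from both ranges of summed FPKM. None of the 7 genes differed in level between them by limma, beside 815 of 14414 genes. On the -Trp diet the signs turned, with Clock at -0.77, Rora at -0.48, Nr1d2 at -0.29, Arntl at -0.24, Rorb at -0.11, Nr1d1 at 0.14 and Npas2 at 0.011. JTK_CYCLE by column name called 4 of the 7 genes in LD and 3 in DD on the Ctrl diet, beside 9416 and 6874 of all 24883 rows, and 0 in LD and 2 in DD on the -Trp diet, beside 617 and 1661. Nr1d1, Arntl and Rora were called in Ctrl LD by both placings. The Ctrl LD groups of the placings share no library, so this is not a repeat of the same calls.

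**Figure D5:**
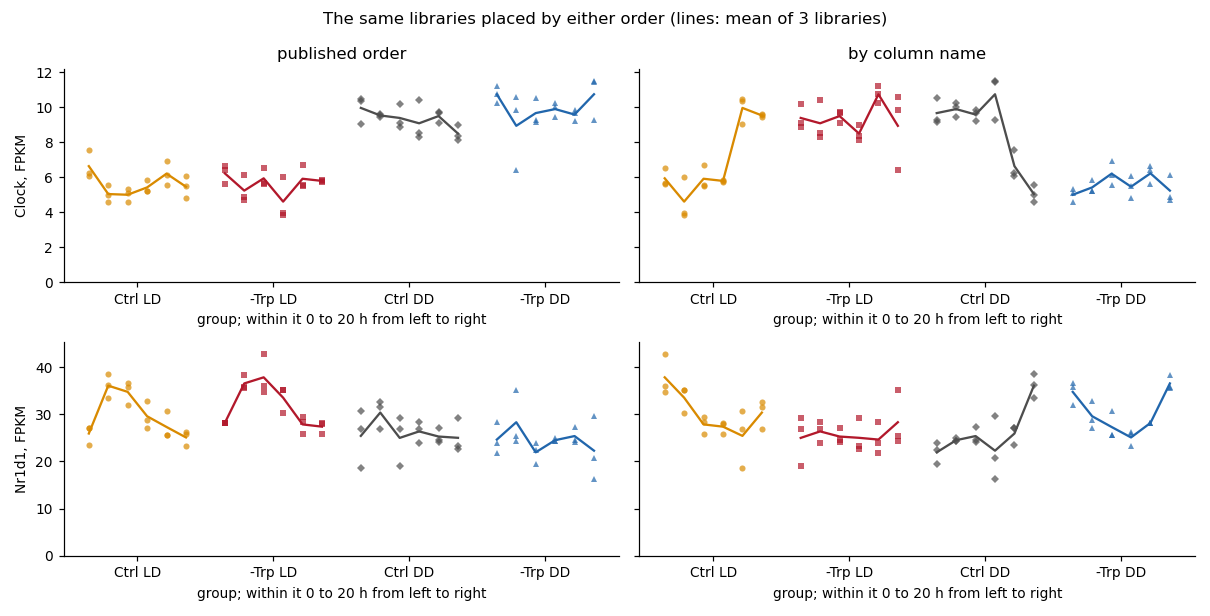
FPKM (vertical axes, from 0) of Clock (top) and Nr1d1 (bottom) in each library, with the libraries placed by the published order (left) or by column name (right), and within each group 6 times from 0 to 20 h from left to right. Lines join means of 3 libraries. By the published order the level of Clock changes between LD and DD (medians 5.61 and 9.62), and by column name it changes within Ctrl LD and within Ctrl DD.

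The other genes of the loop were taken as 27 named genes, chosen with earlier results of these data known. JTK_CYCLE called 9 of 27 in LD and 0 in DD on the Ctrl diet, and 5 in LD and 1 in DD on the -Trp diet, beside the shares of all rows given above. Among the 8 repressors of CLOCK-BMAL1 the calls in Ctrl LD were Per1, Per3, Cry1, Cry2, Ciart and Bhlhe41. Ciart, a repressor that binds CLOCK-BMAL1, was the only 1 of the 8 called in -Trp LD (exact p = 0.000412) and the only 1 of the 27 called in DD (p = 0.00576 in -Trp DD). Among the 4 D-box factors, which bind the element between the loops, Dbp and Nfil3 were called in both LD groups and Tef in -Trp LD. Of the 6 co-factors, Crebbp was called in Ctrl LD and Hdac3 in -Trp LD, and neither the 7 kinases and ligases nor Arntl2, a paralogue of Arntl, were called.

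Dbp, a direct target of CLOCK-BMAL1, had the largest cosinor amplitude of the named genes called, 0.65 ± 0.055 with a peak at ZT9.32 in Ctrl LD (adjusted p = 2.09e-05) and 0.52 ± 0.10 at ZT9.19 in -Trp LD (adjusted p = 0.0209). It went from 14.0, 18.4 and 17.4 FPKM at ZT0 to 39.8, 34.9 and 34.0 at ZT12 in Ctrl LD, with no overlap. Ciart peaked at ZT8.70 (0.38 ± 0.039) and ZT9.71 (0.35 ± 0.055), later than the fitted peaks of Nr1d1, a difference that was not tested. Of all 34 named genes Ciart alone passed the limma test of a difference of rhythm among the 4 groups (adjusted p = 0.0319). In level, 17 of the 27 genes differed between light schedules on the Ctrl diet (14 higher and 3 lower in DD) and 19 on the -Trp diet (11 higher and 8 lower), beside 78.8% and 79.5% of all genes, so these counts are no result about the 27 genes. Per1 was the 1 gene of the 27 whose level differed between diets in LD (0.21 ± 0.052 higher on -Trp, adjusted p = 0.0423), and Bhlhe40 (-0.17 ± 0.046) and Cry2 (-0.14 ± 0.041) did in DD.

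Over the 24 means of group and time, each centred within its group, Arntl and Nr1d1 correlated with r = -0.30 (-0.48 over the 12 LD means and 0.11 over the 12 DD means). Rora and Rorb had r = 0.77, Arntl and Clock 0.68 and Arntl and Npas2 0.70. These are descriptions over means that share libraries. Npas2 was high in a few libraries, as given above, and these set its largest means. Arntl was highest of DD in Ctrl DD CT12 replicate 1 (11.8 FPKM, Npas2 6.17). It was highest of LD in -Trp LD ZT0 replicate 2 (9.98 FPKM, Npas2 5.98). No r of Npas2 is given without these libraries. Among 13241 genes that averaged 1 FPKM or more, the patterns most like Arntl were those of Tsga10 (r = 0.88), Gramd3 (0.85) and Ccdc88c (0.84), and the most opposite those of Apmap (-0.90), Pgf (-0.89) and Slc25a10 (-0.87). Most like Nr1d1 were Ccdc109b (0.86), Slc38a3 (0.85) and Lars (0.83), and most opposite Zfp207 (-0.89), Luc7l (-0.85) and Prpf18 (-0.82). Clock was most like Phip (0.96), Zfp292 (0.96) and Myo9a (0.96), and JTK_CYCLE called none of these genes nor Clock in any group. The balance of long and short transcripts was not taken out of any r given here. Npas2 was most like Kctd1 (0.94), Mfsd8 (0.94) and Gid4 (0.93), and Nr1d2 like AI597479 (0.82) and Bag4 (0.81). Rora was most like Gm3020 (0.83 and 0.82 in 2 rows of that symbol) and Efcab2 (0.82), and Rorb like Syt10 (0.88), Gmps (0.87) and Zkscan1 (0.87).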

How the data were processed

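The deposited tables hold FPKM values per gene and library, which the authors computed with Cufflinks from reads aligned to mm10 with TopHat after trimming with Trimmomatic (versions and any scaling between libraries are not given in the sources used here). Depth is therefore unknown and the precision is that of the 3 libraries per time, each from another mouse. Libraries were placed in the published order, and by column name as an alternative.

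Rhythms were called with JTK_CYCLE on FPKM as deposited (24 h, exact null distribution, Bonferroni over 6 lags, p under 0.05, 24883 rows), rewritten in Python 3.11.15 with numpy 2.4.6. limma 3.58.1 (R 4.3.3) tested rhythms and levels on log2(FPKM + 0.5), scaled between libraries by medians of ratios, in genes averaging 0.5 FPKM or more, with Benjamini-Hochberg adjusted p under 0.05. This adds a pseudocount of 0.5, so fold changes of low genes are understated. All 7 genes passed the filter. The limma p-values set an effect against the spread that its model leaves between libraries, each from another mouse. Those of JTK_CYCLE come from the ranks of the libraries. Scripts were tested on simulated data. Amplitudes are from the mean to the peak, and ± after them is an SE.

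The members, the lists of other clock genes and the rule for named genes (all members and listed genes, and the genes most like each member over time) were chosen with earlier results of these data known. Some of these genes are counted but not reported by name here. Alternatives were pseudocounts of 0.1 and 1, no scaling, no filter or a mean of at least 1 FPKM, time as a factor, 1 fit for 72 libraries, template ties, Benjamini-Hochberg adjustment of JTK_CYCLE, a replicate block and leaving out libraries.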

Additional observations from a re-analysis of the deposited data

How the results depend on the processing

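Of 194 recomputed counts of called genes for 19 comparisons, 162 stayed within 1.5 times the reported count and 32 did not, 17 of them among the 175 that kept the published order. By column name the JTK_CYCLE counts were 3 of 7 (Ctrl DD), 2 (-Trp DD) and 0 (-Trp LD), beside 6874, 1661 and 617 of 24883 rows. The cosinor counts were 6 (LD) and 3 (DD) on Ctrl, beside 9214 of 14320 and 7818 of 14457 genes. On -Trp they were 0 (LD) and 1 (DD), beside 0 of 14511 and 135 of 14187. The count was 5 for a rhythm differing among the groups, beside 10010 of 14425 genes. A rhythm differing by diet had counts of 3 in LD and 1 in DD, beside 7518 of 14461 and 4993 of 14370 genes. A level differing by diet had 4 and 6, beside 9474 and 10177 of the same genes. On the Ctrl diet the counts by light were 5 for rhythm and 0 for level, beside 10450 and 815 of 14414 genes. The count for the diet effect between LD and DD was 5, beside 11188 of 14425 genes. Counts near these shares are no result about the 7 genes. The light difference on the -Trp diet turned to -0.24 (Arntl), -0.77 (Clock), 0.011 (Npas2), 0.14 (Nr1d1), -0.29 (Nr1d2), -0.48 (Rora) and -0.11 (Rorb). The libraries of each group are then others.

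With the published order, Benjamini-Hochberg adjustment left 0 JTK_CYCLE calls in Ctrl LD and in -Trp LD. Template ties kept left 1 in Ctrl LD (Nr1d1), by p-values from the null distribution without ties, which are not exact for that setting. The cosinor count in -Trp LD was 1 with FPKM as deposited, without a filter and without the low-SCN libraries, and 0 with time as a factor, and that in Ctrl LD was 0 with the length covariate. Time as a factor gave 1 gene (Arntl) differing among the groups. The common rhythm was called in 2 genes (Nr1d1 and Arntl) without the low-SCN pair and without the pair Ctrl DD CT12 replicate 1 and -Trp DD CT4 replicate 2. The length covariate gave 1 gene whose level differed by diet in LD (Nr1d1) and 1 in DD (Clock), and leaving out the latter pair gave 1 in DD (Clock). The causes were not tested. The low-SCN pair and the length covariate were chosen after the values were seen.

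The replicate numbers name different mice, and 71 of 252 correlations of same-numbered libraries were above 0.1. The share was highest between the diets in DD (12 of 18, median 0.17) and between the light schedules on -Trp (10 of 18, median 0.13). The main tests did not take the numbers as pairing. These correlations do not settle whether same-numbered libraries share a source of variation. The level by diet in DD was called in 2841 of 14484 genes with a replicate block, against 1947 without it. With the replicate block the JTK_CYCLE count in Ctrl LD was 1 (exact p = 0.115 for Arntl and 0.143 for Rora), the cosinor count in -Trp LD was 1 (Arntl lost) and that for the diet effect between LD and DD was 1 (Nr1d1). It changed no other count beyond 1.5 times.

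Leaving out each library in turn gave 1 to 3 JTK_CYCLE calls in Ctrl LD, 2 to 3 in -Trp LD, 0 to 1 in Ctrl DD and 0 in -Trp DD, and 0 to 2, 1 to 2, 0 and 0 by cosinor. It gave 1 to 2 for the common rhythm, 0 to 1 for the level by diet in DD and for the diet effect between LD and DD, 4 to 5 and 6 to 7 for the level by light on Ctrl and -Trp, and 0 for the other comparisons.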
